A study of Mus musculus with 4 samples.

Results

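Forkhead genes encode transcription factors that share a winged-helix DNA-binding domain and are named by subfamily letter. The probes analysed were those of the array design whose gene name is Fox, a letter from a to s and a number. This gave 65 probes for 43 genes, with 1 further gene left out by the rule, among 55681 probes in all. After probes not well above background were removed, 53 probes and 37 forkhead genes remained, among 19320 genes tested. The name rule used no measured value, while the filter used signal over background.

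The study compared odontoblasts, the cells that make dentin, with osteoblasts, the cells that make bone. Both came from donor-matched 2-week-old mice, which carry enhanced green fluorescent protein (EGFP) under a 2.3 kb fragment of the type I collagen promoter, a promoter that is active in both cell types. The cells were released by enzymes from dental pulp or from calvarial bone and sorted by their fluorescence, and the labels give the strain as C57BL/6 for the pulp cells. On each of 4 two-colour Agilent arrays, 250 ng of labelled cDNA of each kind was hybridised together, with Cy5 on the RNA labelled odontoblast and Cy3 on the RNA labelled osteoblast. No array had its dyes swapped, so a dye effect and a cell type effect cannot be told apart. The sources used here give no number of animals per array. The p-values therefore measure the spread between these 4 arrays, and the number of arrays limits the precision.

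Several forkhead proteins are pioneer factors that can bind DNA within closed chromatin. In the skeleton and face, FoxC and FoxF genes act in mesenchyme that forms bone, teeth and palate, and the FoxF genes respond to hedgehog signals. FoxO factors are held out of the nucleus by insulin and AKT signalling and switch on stress and growth-arrest genes, FoxM1 drives genes of mitosis, FoxJ1 drives genes of motile cilia, and FoxP factors are mostly repressors.

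All values are log2 ratios of Cy5 over Cy3 unless stated, so a negative value means more signal in the RNA labelled osteoblast. Genes that mark each cell type pointed the opposite way from the labels. Dspp, the gene of a dentin matrix protein, had a ratio of -1.95 (adjusted p = 0.0604, limma) and Nes, which encodes nestin of odontoblast processes, had -2.00 (adjusted p = 0.0691). Ifitm5, a gene of mineralising osteoblasts, had 5.05 (adjusted p = 0.0168), and Col1a2, a chain of type I collagen, had 2.79 (adjusted p = 0.0231). The type I collagen promoter is active in both cell types, so Col1a2 does not by itself mark osteoblasts. Of 11 odontoblast and dentin markers, 3 were called higher in Cy3 (Wnt10a, Bmp7 and Sall1) and 0 in Cy5, with a median of -1.71, while of 12 bone markers 4 were called higher in Cy5 (Ifitm5, Pth1r, Phospho1 and Col1a2) and 0 in Cy3, with a median of 2.23. Channels are therefore named here by their dye and their label. Exchanged labels would leave each ratio of Cy5 over Cy3 as it is and change which cell type each dye stands for.

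A probe's signal over its local background had an array median of 10.9 to 16 in Cy3 and 7.10 to 8.21 in Cy5, and 67.8% to 85.2% of probes were well above background, the lowest share being Cy3 of array 3. Ratios of different arrays correlated at r = 0.303 to 0.489 over all features, the lowest pairs being those of array 3 with arrays 1 and 2. Since these are bulk samples, fewer cells of a type and less RNA per cell cannot be told apart.

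The 3 forkhead genes most heavily skewed to Cy3 were Foxq1, Foxf1a (Foxf1 in current RefSeq naming) and Foxj1, and the 3 most skewed to Cy5 were Foxp2, Foxc1 and Foxd1. The probes behind 5 of these 6 genes are shown here because each value below is the signal of that stretch of sequence alone, and those of Foxp2 follow with its values. They are printed 5′ to 3′ on the strand of the transcript in lower case. Coordinates are those the files give for the whole probe, which has 60 bases, on mouse build mm9. Bases 1 to 30 are printed for some probes, as marked, and the whole probe for the others. No source used here names the part of the transcript that a probe lies in.
Foxq1 (chr13:31652206-31652265, plus strand, bases 1 to 30): tgtaactttacagaggatcaaagccgttct
Foxf1a, first probe (chr8:123610681-123610740, plus strand): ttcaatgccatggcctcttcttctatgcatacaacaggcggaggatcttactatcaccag
Foxf1a, second probe (chr8:123611944-123612003, plus strand, bases 1 to 30): cctcctttctgcactgtataaaagggacaa
Foxj1 (chr11:116192214-116192273, minus strand, bases 1 to 30): ggagagactaatatagtgaatgtagttata
Foxc1 (chr13:31902423-31902482, plus strand, bases 1 to 30): cttaagcagtaattgctgttgcttgttgtc
Foxd1 (chr13:99126452-99126511, plus strand, bases 1 to 30): gaaataagtcgaaatttaccatttcctatt

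Across the family, 1 gene of 37 passed an adjusted p of 0.05 (limma, Benjamini-Hochberg over all features), and it was higher in Cy3. Over all 19320 genes, 2.15% were called, 1.27% higher in Cy5 and 0.88% higher in Cy3, so the forkhead share of 2.7% lay near the background. At an unadjusted p under 0.05 there were 10 forkhead genes, 27% of them against 21.3% of all genes, with 4 higher in Cy5 (11.2% of all genes were) and 6 higher in Cy3 (10.1% of all genes were). A ratio of 1 or more in size, with 1 sign on all 4 arrays and both channels detected on at least 2 arrays, was met by 6 forkhead genes (16.2%) against 8.9% of all genes. They split evenly, with 3 in each direction, where 5.1% of all genes met it toward Cy5 and 3.8% toward Cy3. The shares of all genes called, and at an unadjusted p under 0.05, are also the background for the counts of each gene and marker list. No test was run on a list as a whole.

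Most of the family lay close to 0. The mean ratio was within 0.5 of 0 for 24 of 37 genes, 19 lay above 0 and 18 below. The median was 0.09 with quartiles of -0.19 and 0.34, against 0.01 with quartiles of -0.33 and 0.37 over all genes. The median SD between arrays was 0.43, against 0.54 over all genes. A single sign on all 4 arrays was held by 13 forkhead genes (35.1%), against 31.4% of all genes.

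**Figure D1:**
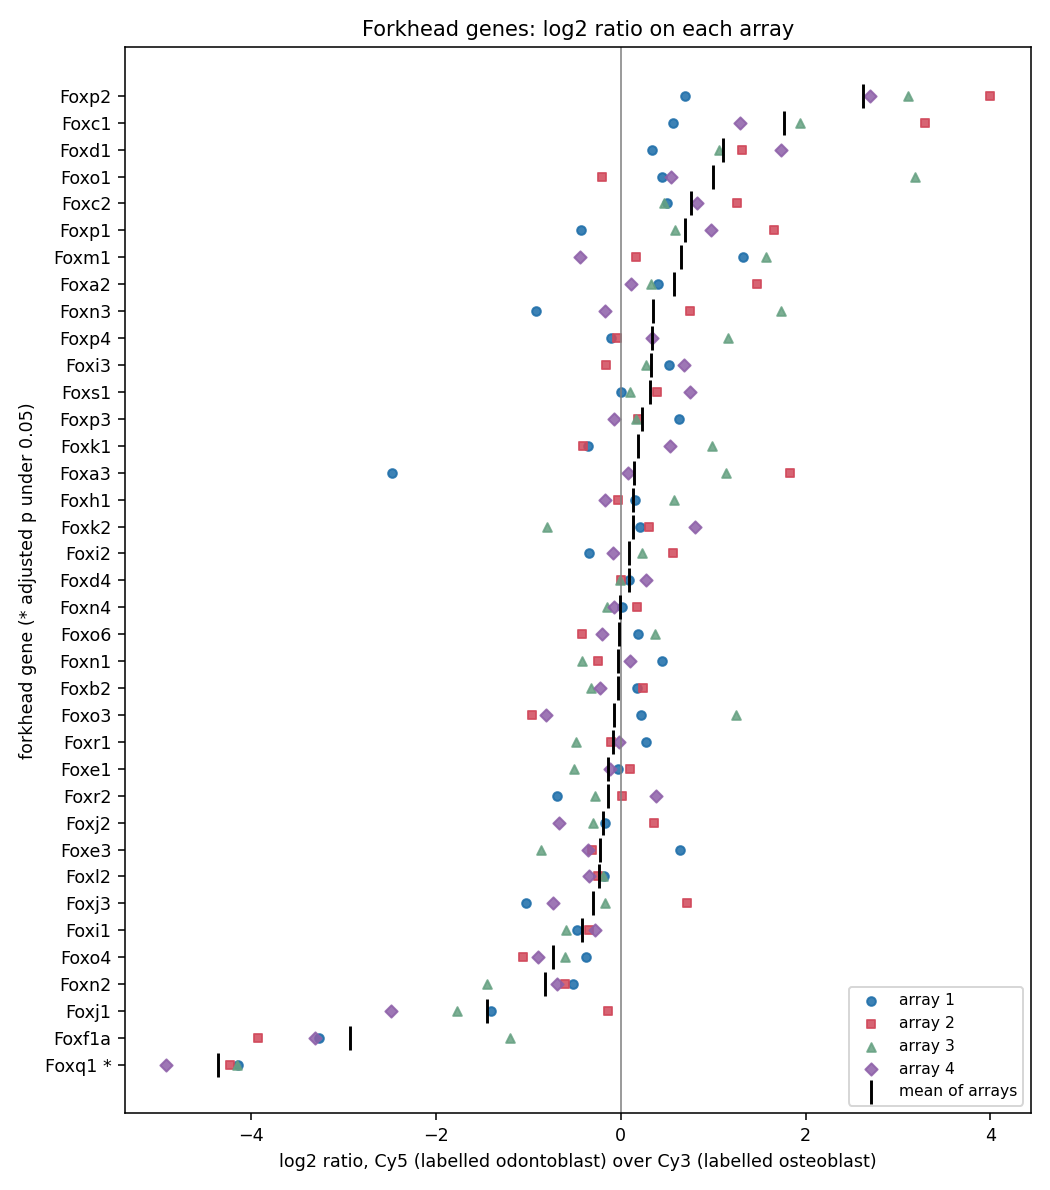
Log2 ratio of Cy5 over Cy3 for each of the 37 forkhead genes kept, with 1 symbol per array and a bar at the mean. Foxq1 (mean -4.36, the asterisk marking an adjusted p under 0.05) and Foxf1a (-2.92) stand at the Cy3 end, Foxp2 (2.62) and Foxc1 (1.77) at the Cy5 end, and most genes lie around 0.

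Foxq1, a factor known for its part in hair shaft formation and in epithelial cells, was the forkhead gene called. Its ratios were -4.14, -4.23, -4.15 and -4.92 on arrays 1 to 4. All 4 arrays had far more signal in Cy3, and array 4 lay lowest. In Cy3 the probe gave 498, 454, 277 and 465 times its local background, and in Cy5 10.5, 10.02, 7.22 and 6.47 times. Both channels were well above background on all 4 arrays. The mean was -4.36 ± 0.21 (SE, n = 4), with a 95% interval of -4.88 to -3.84, or 20.6-fold (adjusted p = 0.00579, limma). Foxq1 ranked 16 among 19320 genes ordered from the most Cy3-skewed. Without array 1 the mean was -4.43 with an adjusted p of 0.0511, and without array 2 it was -4.40 with 0.0553, so the call was lost without either of them, with fewer arrays in each fit.

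Foxf1a, which encodes a hedgehog-responsive factor of mesenchyme around gut, lung and face, was next. The first probe had ratios of -3.26, -3.93, -1.20 and -3.31. Array 3 was the weakest of the 4, and all were below 0. Its Cy3 signal was 261, 392, 109 and 296 times background, and its Cy5 signal 12.2, 11.6, 29.2 and 15.7 times. Array 3 thus had both the lowest Cy3 and the highest Cy5 signal. The mean was -2.92 ± 0.47 (SE, n = 4), or 7.59-fold, with an adjusted p of 0.0573 (limma), just outside the threshold. The second probe, which lies further 3′, had ratios of -3.29, -2.57, -2.71 and -3.06. Here array 3 lay inside the range of the others. Its mean was -2.91 ± 0.20 (SE, n = 4), nearly the same size as the first, and its adjusted p was 0.00924 when each probe was tested as a feature of its own, a fit chosen after seeing the data. The adjusted p of the gene was 0.0182 when both probes were averaged, 0.0384 with median centring, 0.0473 when only probes detected in both channels on all arrays entered, and 0.0321 without array 3. Under the other 11 of 15 alternatives it did not pass, with adjusted p up to 0.217.

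The Cy3 channel, in which Foxq1 and Foxf1a were high, also had more signal of some dental epithelium markers. Of 12 such markers 9 were tested, 2 were called higher in Cy3 (Odam at -5.00 and Ambn at -3.05, genes of ameloblast secretions) and 0 in Cy5, with a median of -0.95. Their summed intensity was 6608 to 13010 in Cy3 and 2248 to 3157 in Cy5. Amtn, Mmp20 and Cdh1 were left out as dim, while the keratins Krt14 (-0.10) and Krt5 (-0.14) and the marker Epcam (-0.03) lay near 0. Amelx, also on this list, lay above 0 at 0.255 and was not called. The part of these markers in the forkhead ratios was not tested.

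Foxj1, the master factor of motile cilia, had ratios of -1.41, -0.14, -1.77 and -2.48. Array 2 was close to 0 and the others were clearly below it. Its Cy5 signal was well above background on 2 arrays and its Cy3 signal on all 4, so the Cy5 level is partly at the limit of detection. The mean was -1.45 ± 0.40 (SE, n = 4; adjusted p = 0.158, limma), and the scanner software's processed signals gave -2.64 (adjusted p = 0.186). Of 25 genes tied to the motile cilium, a list that includes Foxj1, 22 were tested and 0 were called in either direction, with 5 (Cy5) and 2 (Cy3) at an unadjusted p under 0.05. Their median was -0.15, and it was 0.10 with median centring. The brightest were Mcidas, a regulator of multiciliated cells, at 0.14 (adjusted p = 0.715) and the tubulin gene Tubb4b at -0.40 (adjusted p = 0.260).

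Foxj2 and Foxj3, the other J members, had -0.19 (adjusted p = 0.673) and -0.30 (adjusted p = 0.650). Each had 1 array above 0 and 3 below.

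**Figure D2:**
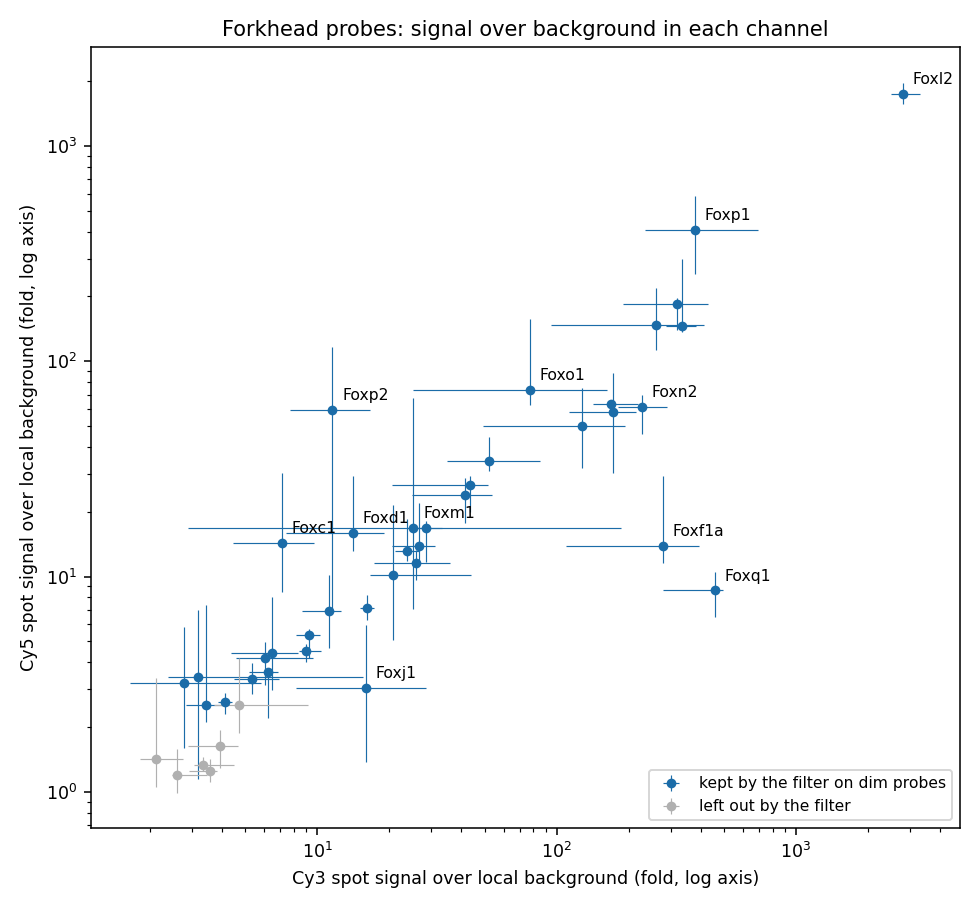
Spot signal over local background in Cy3 (horizontal) and Cy5 (vertical), both on log axes, for the probe representing each of the 43 forkhead genes. Points are medians over the 4 arrays and lines run from the lowest to the highest array, and genes left out as dim are grey. Foxq1 and Foxf1a lie far to the Cy3 side of the diagonal band that most genes form, and Foxp2 lies to the Cy5 side.

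Foxp2, a transcriptional repressor best known for its part in speech and language, had the highest mean ratio of the family. Its ratios were 0.69, 3.995, 3.11 and 2.70. Array 1 was low and the other 3 were high. Its Cy5 signal was 6.92, 116, 59.9 and 59.0 times background, whereas its Cy3 signal stayed between 7.72 and 16.6 times. The spread between arrays lay in Cy5, where array 1 had little signal. The mean was 2.62 ± 0.54 (SE, n = 4), or 6.17-fold, with an adjusted p of 0.0973 (limma), which did not pass the threshold. It passed under 1 of 15 alternatives, median centring (2.84, adjusted p = 0.0480), and ran up to 0.287 under the others.

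Foxp2 has 5 probes, shown here from the start of the gene to its end because they differ in signal. Probe 4 covers 1172 bases of mm9 with 60 bases of sequence, so it crosses an intron and reports spliced RNA.
Foxp2, probe 1 (chr6:15147188-15147247, plus strand, bases 1 to 30): ggagactgtattcatagtaaattgagcatg
Foxp2, probe 2 (chr6:15204809-15204868, plus strand, bases 1 to 30): cctttgctttcacacagcatagcttataat
Foxp2, probe 3 (chr6:15355616-15355675, plus strand, bases 1 to 30): tcagagcccaaaccatctcccaaacctgta
Foxp2, probe 4 (chr6:15363873-15365044, plus strand): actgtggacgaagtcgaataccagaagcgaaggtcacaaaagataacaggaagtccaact
Foxp2, probe 5 (chr6:15391821-15391880, plus strand, bases 1 to 30): cagaaaagaggggtgtacatttttctttag

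Probe 3 represents the gene above, as the brightest kept probe. Probe 4 had ratios of 0.63, 5.45, 4.21 and 4.45, with a mean of 3.69 (adjusted p = 0.107 with each probe as its own feature), and array 1 was again the low one. Probe 5 had 0.78, 1.27, 0.27 and 0.999, with Cy3 not well above background on any array. As a lower bound, its mean Cy5 signal was 1.46-fold that of Cy3. For this bound Cy3 took, on each array, the higher of its own value and the weakest signal called well above background. The Cy5 mean took in all 4 arrays, and Cy5 was well above background on 3 of them. Probes 1 and 2 were dim, with mean ratios of 0.32 and 0.09. The probes of this gene share the same RNA and are not replicates.

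Foxp1, a repressor that forms dimers with Foxp2 and Foxp4, had ratios of -0.43, 1.66, 0.58 and 0.98. Array 1 fell below 0, as it was also the lowest for Foxp2. The mean was 0.70 ± 0.36 (SE, n = 4; adjusted p = 0.359, limma), and it ran from 0.37 (without array 2) to 1.22 (median centring) over the alternatives. Its 5 probes differed and are shown in order from the start of the gene. The gene is on the minus strand, so this order is the reverse of the coordinates.
Foxp1, probe 1 (chr6:99112925-99112984, minus strand): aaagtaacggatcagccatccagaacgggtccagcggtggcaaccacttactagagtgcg
Foxp1, probe 2 (chr6:99102053-99102112, minus strand, bases 1 to 30): tctgctgttcgggtcatgagacttatattt
Foxp1, probe 3 (chr6:98956679-98956738, minus strand, bases 1 to 30): tgtgcctgcattttcttttataatgaaggg
Foxp1, probe 4 (chr6:98885382-98889719, minus strand): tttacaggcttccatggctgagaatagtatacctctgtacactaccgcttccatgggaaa
Foxp1, probe 5 (chr6:98880084-98880143, minus strand): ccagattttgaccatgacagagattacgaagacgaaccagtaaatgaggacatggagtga

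Probe 1 had ratios of 0.75, 2.04, 2.53 and 0.95, all above 0, with a mean of 1.57 (adjusted p = 0.117 with each probe as its own feature). Probe 4, which represents the gene, crosses an intron. Probe 5 had -0.01, 1.62, 0.44 and 0.89 with a mean of 0.74, and its arrays stood in the same order as those of probe 4. Probe 3 had a mean of -0.35 with all 4 arrays below 0, and probe 2 was dim at 0.07. Probes 1, 4 and 5 thus had means above 0 and probe 3 below, and no probe of Foxp1 was called.

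Foxp3, the factor that defines regulatory T cells, had 0.63, 0.19, 0.16 and -0.07, with a mean of 0.23 (adjusted p = 0.553). Of 9 T cell markers 9 were tested and 0 called in either direction (0 at an unadjusted p under 0.05 toward Cy5 and 1 toward Cy3), with a median of -0.05. Their summed intensity was 3635 to 4580 in Cy3 and 4278 to 4562 in Cy5. Foxp4 had -0.11, -0.04, 1.16 and 0.34, with a mean of 0.34 (adjusted p = 0.530), and array 3 was the high one. Of its other probes, one that overlaps it by 54 bases had 0.46 and the remaining one had 0.16.

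Of 19 partners and co-repressors of FoxP proteins, 0 were called in either direction, with 1 (Cy5) and 2 (Cy3) at an unadjusted p under 0.05. The median was -0.16, and it was 0.06 with median centring. Among the brightest was Tbl1xr1, a subunit of the NCoR co-repressor, at 1.32 (adjusted p = 0.136), with all 4 arrays above 0.

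**Figure D3:**
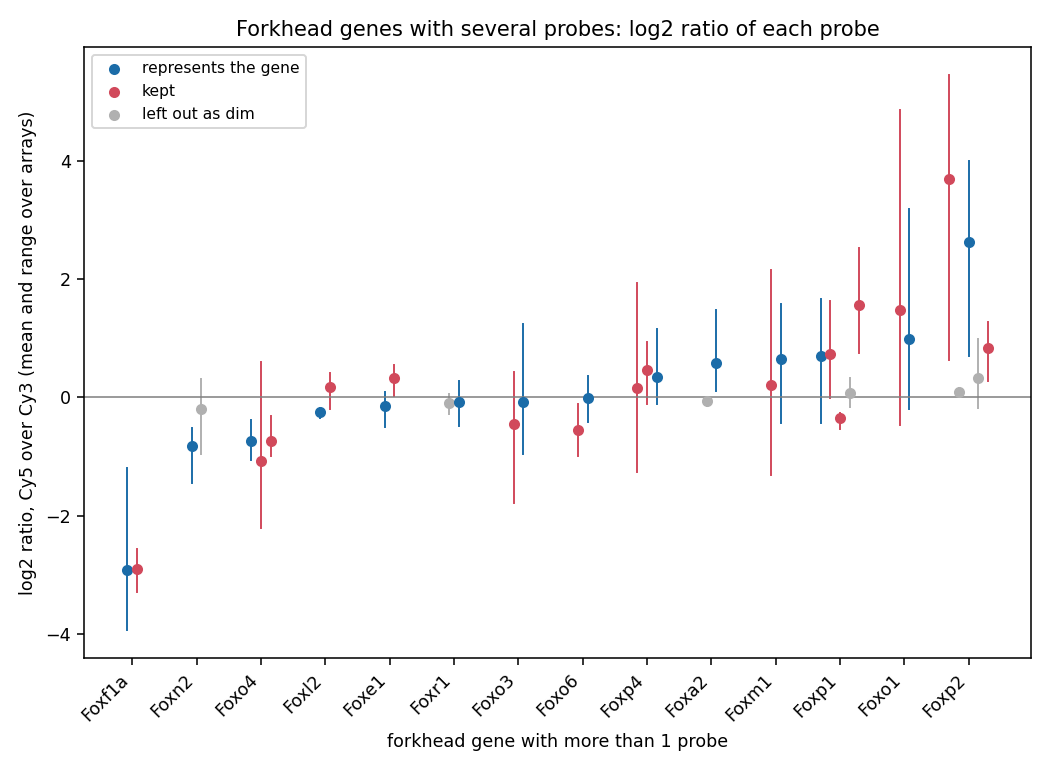
Mean log2 ratio of each probe, with a line from the lowest to the highest array, for forkhead genes with more than 1 probe. Blue marks the probe that represents the gene, red other kept probes and grey probes left out as dim. The Foxf1a probes coincide at -2.92 and -2.91, while the Foxp2 probes run from 0.09 to 3.69.

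Foxc1 and Foxc2 act in the mesenchyme of the calvaria, the eye and the vessels. Foxc1 had ratios of 0.57, 3.29, 1.94 and 1.30. All were above 0, with array 1 lowest and array 2 highest, the same order of extremes as in Foxp2. The mean was 1.77 ± 0.46 (SE, n = 4), or 3.41-fold (adjusted p = 0.144, limma), with a 95% interval of 0.63 to 2.92. Its Cy3 signal was 4.46 to 9.71 times background and its Cy5 signal 8.5 to 30.3 times. Foxc2 had 0.50, 1.25, 0.47 and 0.82, with a mean of 0.76 ± 0.21 (SE, n = 4; adjusted p = 0.156). It was close to background, with Cy3 well above it on 1 array and Cy5 on 3, and the scanner software's processed signals gave 2.41 (adjusted p = 0.159).

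Of 21 genes linked to FoxC factors in calvaria and mesenchyme, 18 were tested. There were 2 called in each direction, where 1.27% of all genes were called higher in Cy5 and 0.88% higher in Cy3. Fgfr2, a receptor mutated in craniosynostosis (3.17, adjusted p = 0.0223), and Twist1, a factor that keeps sutures open (1.65, adjusted p = 0.0336), were called higher in Cy5. Of the 2 called higher in Cy3, Bmp2, a bone morphogen, had -2.82 (adjusted p = 0.0122). The median was 0.17, against 0.01 over all genes, and it was 0.55 with median centring. The brightest of the others were Fgfr1 at -0.31 (adjusted p = 0.432) and Fgf8 at 0.19 (adjusted p = 0.580).

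Foxd1, a marker of stromal progenitors in kidney and of mesenchyme elsewhere, had 0.34, 1.31, 1.07 and 1.74. Array 1 was again the lowest, and all were above 0. The mean was 1.11 ± 0.27 (SE, n = 4), or 2.16-fold (adjusted p = 0.129, limma). Foxd4 had 0.09 (adjusted p = 0.793), and Foxd2 and Foxd3, the latter a neural crest factor, were left out as dim.

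The Cy5 channel, in which Foxp2, Foxc1 and Foxd1 were higher, also had more signal of cartilage markers and of some macrophage markers. Of 9 cartilage markers 3 were called higher in Cy5 (Comp, Col2a1 and Col11a2) and 0 in Cy3, with a median of 2.04 and a summed intensity of 4464 to 8498 in Cy3 and 48720 to 213800 in Cy5. The median was 0.80 without array 2. Of 9 macrophage and leukocyte markers 2 were called higher in Cy5 (Lyz2 and Laptm5), with a median of 1.76 and a summed intensity of 77410 to 106500 in Cy3 and 112300 to 193900 in Cy5. Csf1r (-0.39, below 0 on all 4 arrays), Cd68 (-0.10) and Itgam (0.17), also macrophage genes, were not called. Their part in the forkhead ratios was not tested. Of 10 endothelial markers 8 were tested and 0 called (1 toward Cy5 and 0 toward Cy3 at an unadjusted p under 0.05), with a median of 0.13. Of 10 pericyte and smooth muscle markers 9 were tested and 0 called (1 and 1), with a median of 0.17. Of 7 glial and neuronal markers 6 were tested and 0 called (2 and 0), with a median of 0.04.

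Foxf1 and Osr genes are among those that hedgehog signals control in head mesenchyme. Of 18 hedgehog genes 17 were tested, with 2 called higher in Cy5 and 1 in Cy3, against 1.27% and 0.88% of all genes. The co-receptor gene Cdon (2.95, adjusted p = 0.0287) and Osr1 (2.51, adjusted p = 0.0239) were called higher in Cy5, and Osr2, a factor of palate and tooth mesenchyme, was called higher in Cy3 (-4.23, adjusted p = 0.00729). The related Osr1 and Osr2 thus took opposite signs on all 4 arrays. The median was -0.07, and 0.62 with median centring. The brightest of the others were the signal transducer Smo at -0.07 (adjusted p = 0.887) and the co-receptor gene Gas1 at -1.02 (adjusted p = 0.409), and Shh was left out as dim.

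The FoxO genes were not called. Foxo1, the O member needed for osteoblast stress resistance, had 0.45, -0.20, 3.18 and 0.55. Array 3 stood far above the others. The mean was 0.99 ± 0.58 (SE, n = 4; adjusted p = 0.407, limma). Both of its probes are shown because array 3 was high on each.
Foxo1, first probe (chr3:52150183-52150242, plus strand): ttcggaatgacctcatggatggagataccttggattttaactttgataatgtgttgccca
Foxo1, second probe (chr3:52153289-52153348, plus strand, bases 1 to 30): ttctgggagaatgttcgctttctggtctat

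The second probe represents the gene. The first had 1.26, -0.46, 4.87 and 0.23, with a mean of 1.47. On array 3 its Cy3 signal was 3.98 times background against 59.4 to 111 times on the others. The second probe's Cy3 signal was 25.2 times background on array 3 and 75.2 to 163 times on the others. The Cy5 signal on array 3 was also the highest of the 4, at 99.8 times background on the first probe and 158 times on the second. Both the lowest Cy3 and the highest Cy5 signal thus went with the high ratio, and without array 3 the mean of the gene was 0.26.

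Foxo3, a factor of stress resistance and quiescence, had 0.22, -0.96, 1.24 and -0.81, with a mean of -0.08 (adjusted p = 0.937). Its arrays fell on both sides of 0, with array 3 highest, and its other probe had a mean of -0.44. Foxo4 had -0.38, -1.06, -0.61 and -0.90, all below 0, with a mean of -0.73 ± 0.19 (SE, n = 4; adjusted p = 0.148). A probe that overlaps it by 52 bases gave -0.74, and its remaining probe, with ratios of -2.21, -1.21, 0.60 and -1.47, gave -1.07. Foxo6, expressed mainly in brain, had 0.19, -0.41, 0.37 and -0.20, with a mean of -0.02 (adjusted p = 0.975), and its other probe had -0.56 with all arrays below 0.

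Upstream of the FoxO factors, 23 of 23 genes of insulin and AKT signalling were tested. Sgk1, a kinase that phosphorylates FoxO proteins, was called higher in Cy3 at -2.42 (adjusted p = 0.0384), and 0 were called higher in Cy5. The median was -0.24, and it was -0.01 with median centring, -0.05 with scaling between arrays and 0.02 without array 2. The brightest of the others were the acetyltransferase Crebbp at 0.69 (adjusted p = 0.130) and the kinase Akt2 at -0.05 (adjusted p = 0.891). Of 30 FoxO targets 29 were tested and 0 were called in either direction. At an unadjusted p under 0.05 there were 3 (Cy5) and 8 (Cy3), where 11.2% and 10.1% of all genes were. The median of the targets was also -0.24, and it was 0.04 with median centring. The brightest were the antioxidant enzymes Cat at -0.04 (adjusted p = 0.934) and Sod2 at -0.25 (adjusted p = 0.826). The largest ratios each way were those of Pdk4 at -3.36 (adjusted p = 0.0636, limma) and Txnip at 2.35 (adjusted p = 0.0920). Each had its sign on all 4 arrays.

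Foxm1, the factor of the G2 and mitosis programme, had 1.32, 0.17, 1.57 and -0.44. The arrays fell on both sides of 0. The mean was 0.66 ± 0.39 (SE, n = 4; adjusted p = 0.412, limma). The level differed more between arrays than between channels. The Cy3 signal was 6.20, 44.2, 2.88 and 187 times background and the Cy5 signal 8.02, 25.5, 7.05 and 67.7 times, with array 4 highest in both channels. Its other probe had -0.26, -1.32, 2.16 and 0.26, with a mean of 0.21. Over the alternatives the value of the gene ran from 0.21 to 1.54. Of 25 FoxM1 targets 23 were tested and 0 were called in either direction, with 0 and 0 at an unadjusted p under 0.05, while Aurkb and Cenpf were dim. Their median was 0.20, and the array medians were -0.01, -0.43, 0.72 and 0.80. The brightest were the centromere gene Cenpb at 0.44 (adjusted p = 0.594) and the proliferation marker Mki67 at 0.51 (adjusted p = 0.550). The summed intensity of the list was 31360 to 104800 in Cy3 and 52000 to 152200 in Cy5.

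**Figure D4:**
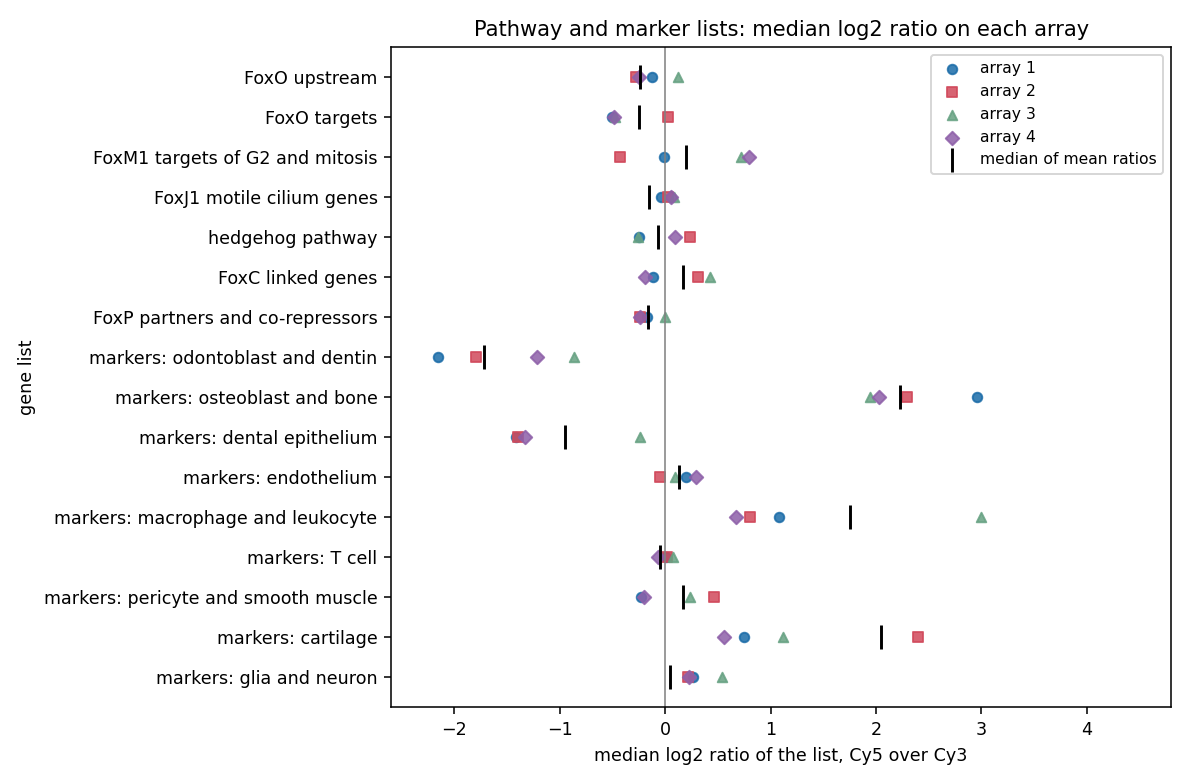
Median log2 ratio of each pathway and marker list on each array (symbols), with a bar at the median of the genes' mean ratios. The forkhead pathway lists lie between -0.51 and 0.80, the dentin markers lie below 0 on all 4 arrays, and the bone markers lie above 0 on all 4.

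The remaining subfamilies gave no call. Among the N genes, Foxn2 had -0.52, -0.60, -1.45 and -0.69, with a mean of -0.82 (adjusted p = 0.158), all below 0. Foxn3, a checkpoint repressor, had 0.35 (adjusted p = 0.708) with arrays from -0.92 to 1.74, Foxn1, the thymus epithelium factor, had -0.03 and Foxn4, a factor of retina development, had -0.01. Among the I genes, Foxi1, a factor of acid-secreting cells in kidney and inner ear, had -0.42 (adjusted p = 0.258) with arrays from -0.59 to -0.27. Foxi2 had 0.09 and Foxi3, a factor of teeth and other ectodermal organs, had 0.33 (adjusted p = 0.435).

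Among the A genes, which open chromatin in liver and gut, Foxa3 had the widest spread of the family, with -2.47, 1.83, 1.14 and 0.08 and a mean of 0.15 (adjusted p = 0.930). Foxa2 had 0.58 (adjusted p = 0.323) with all arrays above 0 and Cy3 above background on 1 array, and the processed signals gave 1.34. Foxa1 was left out as dim. Foxk1 and Foxk2, repressors linked to metabolism and autophagy, had 0.19 (adjusted p = 0.763) and 0.13 (adjusted p = 0.840). Foxe1, a thyroid and palate factor, had -0.14 (adjusted p = 0.714), and Foxe3, a lens factor, had -0.22 (adjusted p = 0.703). The other kept probe of Foxe1 had 0.32, with all 4 arrays above 0 and Cy3 well above background on 1. Foxh1, a partner of Smad proteins, had 0.14, Foxs1 0.31 with all arrays above 0, Foxb2 -0.03, Foxr1 -0.08 and Foxr2 -0.14, with adjusted p-values from 0.442 to 0.939. Foxb1 and Foxl1, the latter of the gut mesenchyme, were dim, and each of the 6 dim genes was well above background on at most 2 of 4 arrays in either channel.

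Foxl2, a factor of ovary and eyelid, is represented by a very bright probe. Its Cy3 signal was 2490 to 3311 times background and its Cy5 signal 1566 to 1963 times, with ratios of -0.18, -0.25, -0.19 and -0.34 and a mean of -0.24 (adjusted p = 0.458). The value was 0.72 with median centring (adjusted p = 0.0597), a setting under which the median of all genes was 0.20. Its other probe overlaps the bright one by 12 bases, in capitals below, and had 36.3 to 48.1 times background in Cy3 with a mean ratio of 0.18. The bright probe is 81.7% G and C and the other 71.7%.
Foxl2, other probe (chr9:98856846-98856905, plus strand): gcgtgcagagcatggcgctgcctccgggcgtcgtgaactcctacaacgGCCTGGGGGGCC
Foxl2, bright probe (chr9:98856894-98856950, plus strand): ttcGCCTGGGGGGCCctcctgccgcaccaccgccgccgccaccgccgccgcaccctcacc

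A probe's signal depends in part on its own sequence, so signals of different probes cannot be compared as amounts of RNA. The cause of the difference between these probes was not tested. The position of the bright probe covers 57 bases of mm9 for 60 bases of sequence, so some of its bases have no position there.

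**Figure D5:**
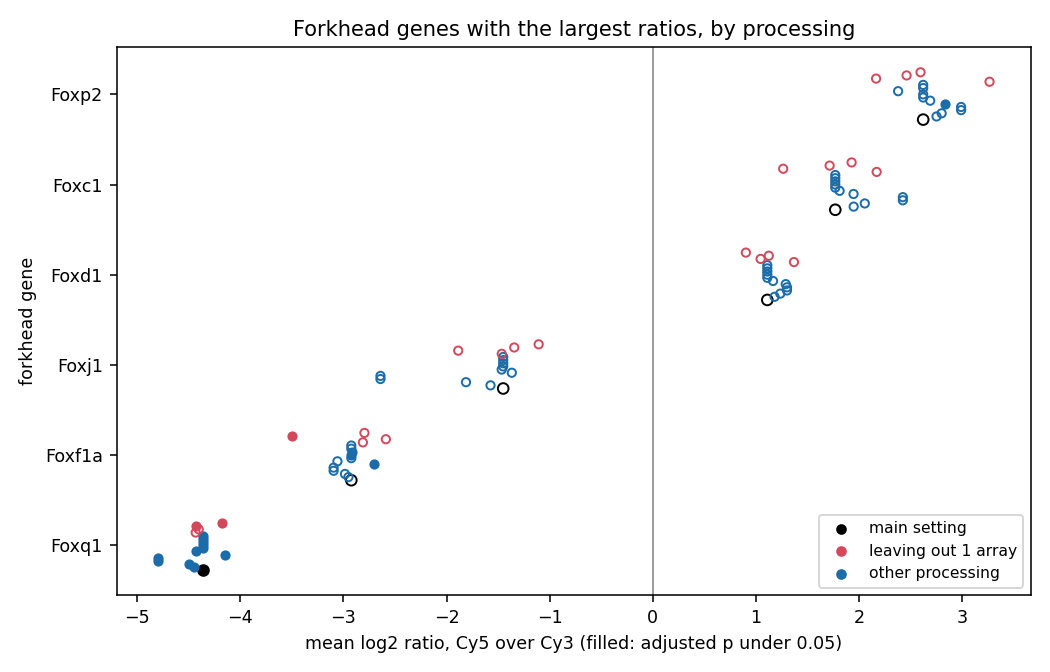
Mean log2 ratio of the 6 forkhead genes with the largest ratios, in the main setting (black), when 1 array was left out (red) and under other processing (blue). Filled points had an adjusted p under 0.05 and open points did not. Each gene kept its sign at every point, with Foxq1 between -4.80 and -4.15 and Foxf1a between -3.50 and -2.59.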

How the data were processed

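RNA of 4 arrays was analysed as 1 group, each array pairing both RNAs. Per the file headers, the deposited scanner files came from Agilent Feature Extraction 10.7.3.1 with coordinates on mm9. The deposited intensity values are mean spot and median local background signals, not normalized, beside the software's processed intensity values and their log10 ratio. The deposited flags are numbers of 0 or 1. The deposited value table holds log10 ratios, 99.3% of them within 0.0001 (log2) of the scanner files' ratio on each array. Their column medians are 0 and their direction is Cy5 over Cy3. No source used here says whether these were centred further.

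Here, background was corrected by normexp (offset 50) and arrays were normalized by loess in limma 3.58.1 under R 4.3.3. Control spots (3671) and outlier spot values (949) were left out, and 0 were saturated. A probe was kept if 1 of its channels was well above background on 3 or more of the 4 arrays (44239 of 55681 were). The brightest probe represented a gene. Symbols came from accessions (27235 probes, RefSeq GRCm38.p6 table) or the files (3581 current, 1557 older), and 23308 probes had none. All 37387 features entered lmFit and eBayes, two-sided against 0, with Benjamini-Hochberg adjustment, and the script was tested on simulated data. An adjusted p under 0.05 was a call. With 1 slide and 1 scan there was no batch to test. Values by array are given for called members, for those of 1 sign and size 1 or more detected in both channels on at least 2 arrays, and for the O, P, C and M genes. Of each list, called genes and up to 2 bright others are named, beside Dspp, Nes, Ifitm5 and Col1a2. Some genes that this rule picks are not reported here. Further genes (Krt14, Krt5, Epcam, Amelx, Pdk4, Txnip, Foxn2, Foxa3, Foxl2) were named with their values already known. The members and lists were chosen with earlier results of these data known.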

Additional observations from a re-analysis of the deposited data

Results flagged for a closer look

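Foxq1 had a ratio of -4.92 on array 4, while the other 3 arrays lay between -4.23 and -4.14. The gap between array 4 and its nearest neighbour took 0.887 of the whole range. Of 37 forkhead genes examined for such an array, 1 had one, and chance gives about 1 in 20. The sign and the size of the Foxq1 difference do not rest on this array, since the mean without it was -4.18 (adjusted p = 0.0446).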

How the results depend on the processing

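Alternatives were background correction, signal source, normalization, filter, choice of probe, variance model and leaving out each array. Of 549 forkhead ratios under them, 540 were counted as the same, 5 newly passed the threshold and 2 no longer did. The other 2 changed sign (Foxl2 to 0.72 with median centring, Foxa2 to -0.058 with no filter, where its dim probe stood for the gene). For 18 forkhead genes the ratio was within 1 SE of 0, where no direction was read. A change of sign in those genes counted as the same if no call was made. Examples are Foxa3, from -0.42 to 1.02, and Foxo3, from -0.51 to 0.22. Size was not judged, so a gene that kept its sign and stayed uncalled also counted as the same. Foxc2 (0.76) reached 2.41, Foxm1 (0.66) reached 1.54 and Foxj1 (-1.45) reached -2.64 in this way. The 540 therefore does not measure how stable the sizes were. Over all genes, 245 were called higher in Cy5 and 170 in Cy3. The scanner software's processed signals gave 160 and 104, and the deposited value table gave 166 and 106. Median centring gave 1127 and 241, moving the share of calls in Cy5 from 59% to 82.4% and the median of all genes from 0.01 to 0.20. Leaving out 1 array gave 0 to 99 in Cy5 and 0 to 75 in Cy3. Without array 1 or 2 limma made 0 calls, and 3135 and 3350 genes had an unadjusted p under 0.05. Without array 3 there were 99 and 75, and without array 4 16 and 14. Fewer samples entered these fits. Forkhead calls were 1 in Cy5 and 2 in Cy3 with median centring. They were 2 in Cy3 when both channels had to be detected on all arrays, with the mean over probes, and with each probe as its own feature (added after seeing the data), and 0 to 2 when an array was left out. Foxq1 ran from -4.43 to -4.18 over the left-out arrays, with adjusted p from 0.0315 to 0.0553. Over all its alternatives the adjusted p ran from 0.00374 to 0.0553. Of the list medians 212 stayed within their spread and 28 moved beyond it. No further pairing was added because the ratio of each array already pairs both RNAs and there is 1 group. Causes of the other moves were not tested. Signal near background limits Foxc2, Foxj1 and Foxp2 probe 5.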

Other observations

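Some forkhead genes whose probes lie near each other on mm9 had ratios of opposite sign. Pairs were sought only among the forkhead genes analysed, so the gene left out by the rule could lie between them. The probes of Foxq1 and Foxc1 lie 250.2 kb apart on chromosome 13, and the ratios were -4.36 and 1.77. Those of Foxf1a and Foxc2 lie 31.95 kb apart on chromosome 8, with -2.92 and 0.76. On each of the 4 arrays the first gene of each pair was below 0 and the second above. Foxc2 was kept through Cy5, well above background on 3 arrays, while its Cy3 was on 1. Its sign on single arrays therefore rests on signal near background, and these pairs include the most skewed genes of the family. Foxl1, whose probe lies 11.65 kb from that of Foxc2, was dim. Foxj3 and Foxo6, 638.6 kb apart on chromosome 4, had -0.30 and -0.02.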
